A study of Homo sapiens with 6 samples.

Results

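The transcription factors that specify and maintain B-lineage identity were examined in total RNA-seq of SEM cells, a human B-cell acute lymphoblastic leukemia line. They were 10 genes named by symbol, PAX5, EBF1, TCF3, IKZF1, IKZF3, FOXO1, LEF1, SOX4, BACH2 and BCL11A, and all 10 were found among the 57820 genes of the tables. The rule used gene names only, but the names were chosen with earlier results of these data known. The comparison asks how transcription differs between cells that express full-length CTCF and cells that express CTCF without its RNA-binding region (dRBR), when endogenous CTCF is removed. CTCF is the architectural DNA-binding protein of chromatin loops.

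All 6 libraries came from SEM cells in which endogenous CTCF carries a miniAID-mClover3 tag, titled C27 in every label, with constitutive OsTIR1(F74G). The auxin analog 5-Ph-IAA directs the tagged protein to degradation. According to the methods, both groups received 5-Ph-IAA over 24 h in all. Doxycycline at 1 µg/mL followed 6 h after its start and lasted 18 h, inducing HA-tagged CTCF, either full-length (CTCF-WT, 3 libraries) or dRBR (CTCF-dRBR, 3 libraries). The genotype label of CTCF-dRBR names the TRE3G-HA-CTCF-dRBR transgene, whereas that of CTCF-WT names only the tagged endogenous gene. No label says that the replicates were separate cultures, so the p-values measure the spread between these libraries, which may be technical. By the methods, each form of CTCF was carried by its own transduced line. The form of CTCF and the line therefore cannot be told apart, and no p-value covers a spread between lines.

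In the B lineage, the E proteins encoded by TCF3 and the factor EBF1 act together with FOXO1 to switch on the early B-cell program, and PAX5 then commits cells to it and holds other fates shut. Ikaros (IKZF1) and its relative Aiolos (IKZF3) restrain proliferation and guide differentiation. LEF1 and SOX4 support the survival and growth of B-cell precursors, BCL11A is needed for early lymphoid development, and BACH2 is a repressor that acts at the pre-B checkpoint and in mature B cells.

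Total expected counts were 51732177 to 53166735 in CTCF-WT and 30034505 to 50457168 in CTCF-dRBR. CTCF-dRBR replicate 1 was the shallowest and stood apart from the rest, with Spearman correlations of 0.913 to 0.968 to the other libraries across genes, so the fold changes of the factors are also given without it. The fold change varied with the GC content of the exons, in that genes of 40% GC or less had a median log2 fold change of 0.31 and genes above 60% GC one of −0.76 (CTCF-dRBR minus CTCF-WT). For this reason values after removal of that trend are also given. It varied by library. Deviations from the mean of all libraries had Spearman correlations with exon GC of 0.71, 0.67 and 0.34 in CTCF-WT. In CTCF-dRBR they were −0.78, −0.42 and 0.50, so CTCF-dRBR replicate 3 had the sign of the CTCF-WT libraries. CTCF-WT replicate 3 and CTCF-dRBR replicate 3 were each closest to the other across genes (Spearman correlation 0.9924). CTCF mRNA, in which the endogenous and induced forms are not separated, was at 210, 211 and 249 CPM (counts scaled to library size and normalized by TMM) in CTCF-WT and at 273, 264 and 252 CPM in CTCF-dRBR. Of 7 B-precursor markers matched, 5 reached 10 CPM in every library, with DNTT and MME the exceptions. None of 8 T-cell or 6 erythroid markers reached 1 CPM in any library, and the 8 myeloid markers summed to 24.05 to 35.4 CPM in CTCF-WT and 13.6 to 38.0 CPM in CTCF-dRBR. Of 7 mature B or plasma cell markers matched, 1 reached 1 CPM in any library, and they summed to 0.915 to 1.19 CPM in CTCF-WT and 1.38 to 2.44 CPM in CTCF-dRBR. The part of these shifts in the results below was not tested.

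By limma-voom, 0 of the 9 factors tested passed an adjusted p of 0.05, as was the case for 0 of all 14044 genes (0% called), and the smallest adjusted p of any gene was 0.0959. FOXO1 was 2.04-fold and BACH2 1.47-fold higher in CTCF-dRBR, LEF1 and EBF1 were 1.24-fold and 1.21-fold higher, PAX5 and TCF3 were at 0.659 and 0.666 times their CTCF-WT level, and IKZF1, SOX4 and BCL11A differed less. At an unadjusted p under 0.05 there were 6 of the 9 factors, 4 higher and 2 lower, against 25.4% of all genes tested (12.6% higher and 12.8% lower). The fold change was above 0 for 7 of the 9, against 49.4% of all genes, and 1 of the 9 differed by more than 2-fold, against 7.75%. CPM ranges of the groups did not overlap for 6 of the 9, 5 higher and 1 lower, against 37.5% of all genes. The background was 20.0% for genes without overlap that were higher and 17.5% for those that were lower. The median log2 fold change of the 9 factors was 0.16, beside −0.01 over all genes. IKZF3 was below 1 CPM in every library and was not tested, and the other 9 factors were above that level in all 6 libraries.

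The number of calls depended on the fit. Of the 9 factors, edgeR's quasi-likelihood test called 0 at an adjusted p of 0.05 (0% of all genes called). It called 5 at an unadjusted p under 0.05, against 3460 of all 14044 genes. DESeq2 called 3 (FOXO1, BACH2 and LEF1, with 11.5% of all genes called), as did limma-voom after removal of the GC trend (the same 3 genes, with 9.71% of all genes called). Without CTCF-dRBR replicate 1 limma-voom called FOXO1 (3.90% of all genes). On TPM, limma-trend with a pseudocount of 1 or of 0.1 called FOXO1 and BACH2 (5.93% and 5.41% of all genes). voomWithQualityWeights, which gives each library a weight (0.0969 for CTCF-dRBR replicate 1), called 7 factors and 68.2% of all genes, and removal of the GC trend without that library called 5 factors and 24.5% of all genes.

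**Figure D1:**
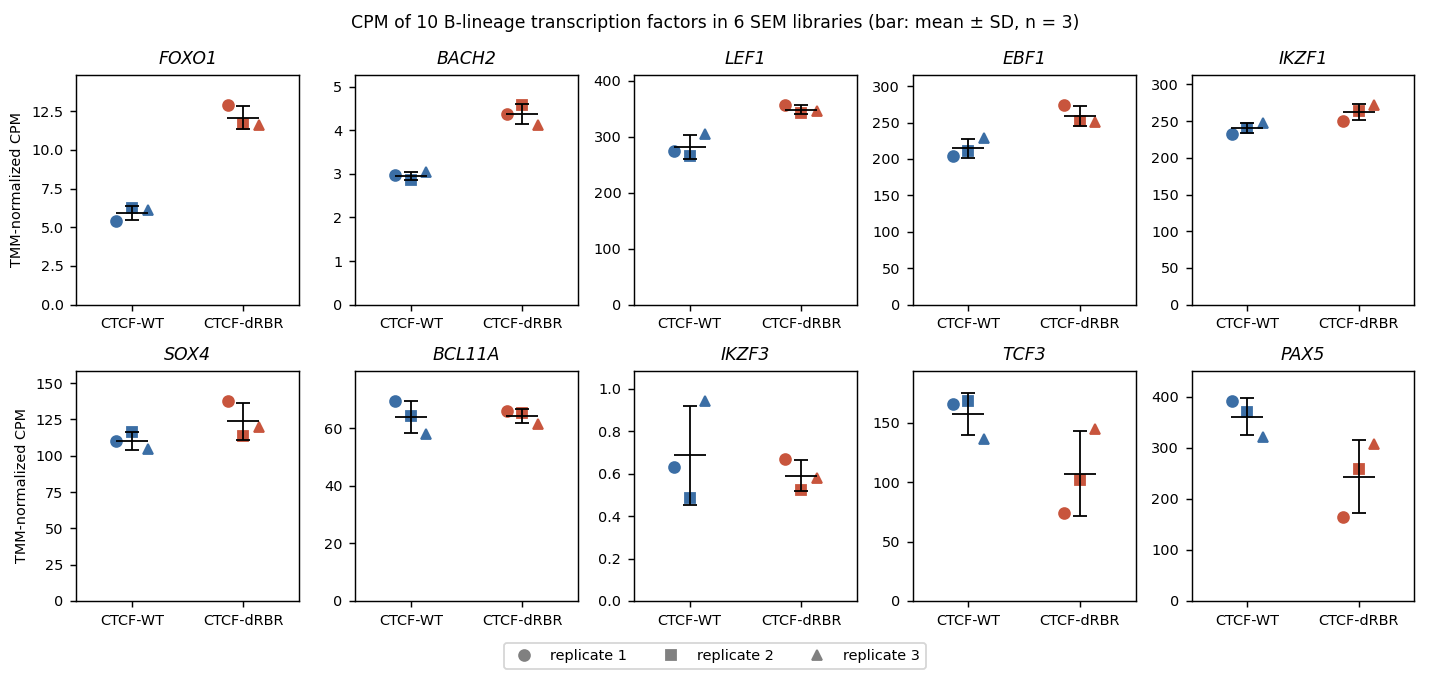
TMM-normalized CPM (y axis, from 0) of each factor in the 3 CTCF-WT (blue) and 3 CTCF-dRBR (red) libraries, with symbols for the replicate numbers and black bars for the mean ± SD (n = 3). FOXO1, BACH2, LEF1, EBF1 and IKZF1 lie higher in every CTCF-dRBR library than in every CTCF-WT library, PAX5 lies lower, and CTCF-dRBR replicate 1 is the lowest library for both PAX5 and TCF3.

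The promoters of the 4 factors with the largest fold changes by limma-voom on all 6 libraries are shown, since the comparison concerns a DNA-binding protein. FOXO1 and BACH2 were higher and PAX5 and TCF3 lower in that fit, but TCF3 had overlapping groups and turned to 0.21 after the GC trend was removed, where SOX4 (0.41) and LEF1 (0.39) exceeded PAX5 (−0.28). These are the 250 bases before the RefSeq transcription start (build GRCh38.p14), read 5′ to 3′ on the strand of the gene, all on the minus strand: FOXO1 at chr13:40666642-40666891, BACH2 at chr6:90296844-90297093, PAX5 at chr9:37034269-37034518 and TCF3 at chr19:1652616-1652865. Capitals mark matches, on either strand, to any of 7 short motifs: the E-box CANNTG of E proteins, CCCNNGGG of EBF, TGGGAA of Ikaros, GTAAACA of forkhead factors, CTTTGA of TCF/LEF, AACAAT of SOX factors and CCCTC, the letters for which CTCF is named. The motifs can overlap.
FOXO1: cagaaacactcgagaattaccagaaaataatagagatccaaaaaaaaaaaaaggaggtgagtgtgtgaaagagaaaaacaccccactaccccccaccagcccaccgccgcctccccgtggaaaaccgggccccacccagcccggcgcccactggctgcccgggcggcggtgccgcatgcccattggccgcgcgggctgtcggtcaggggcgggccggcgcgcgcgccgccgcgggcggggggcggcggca
BACH2: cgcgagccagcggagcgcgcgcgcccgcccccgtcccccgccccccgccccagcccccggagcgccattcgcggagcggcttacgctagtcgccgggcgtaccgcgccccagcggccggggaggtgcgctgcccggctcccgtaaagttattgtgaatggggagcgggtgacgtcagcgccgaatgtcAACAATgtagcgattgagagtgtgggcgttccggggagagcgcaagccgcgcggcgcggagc
PAX5: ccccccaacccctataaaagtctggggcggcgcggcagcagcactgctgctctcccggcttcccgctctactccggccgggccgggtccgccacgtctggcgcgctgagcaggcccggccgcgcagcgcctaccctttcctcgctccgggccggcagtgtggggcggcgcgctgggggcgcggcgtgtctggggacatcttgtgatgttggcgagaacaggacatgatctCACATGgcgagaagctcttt
TCF3: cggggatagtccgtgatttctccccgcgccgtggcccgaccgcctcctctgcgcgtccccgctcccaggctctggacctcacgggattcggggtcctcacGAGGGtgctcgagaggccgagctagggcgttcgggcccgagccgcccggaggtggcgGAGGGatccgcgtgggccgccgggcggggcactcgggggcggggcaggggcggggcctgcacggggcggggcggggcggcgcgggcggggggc

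FOXO1 held no match in this window, BACH2 held 1 SOX match, PAX5 held 1 E-box and TCF3 held 2 CCCTC matches. Over all 35116 RefSeq promoter windows of 300 bases, 68.7% held an E-box, 19.1% the EBF motif, 24.03% the Ikaros motif, 3.42% the forkhead motif, 12.9% the TCF/LEF motif, 10.1% the SOX motif and 71.2% the letters CCCTC. The 300-base windows had a GC content of 68.0% for FOXO1, 73.3% for BACH2, 65.0% for PAX5 and 78.3% for TCF3, against a median of 58.7% over all windows. For SOX4 and LEF1 the GC content was 49.3% and 47.0%. Nothing about binding of a factor was measured here. Of the 10 factors, 9 had at least 1 promoter in the table, and IKZF3 had none.

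FOXO1, the forkhead factor that activates the recombinase genes in B-cell precursors (GRCh37, chr13:41129804-41240778, minus strand, 5 merged exons), was at 5.40, 6.23 and 6.10 CPM in CTCF-WT and at 12.9, 11.7 and 11.6 CPM in CTCF-dRBR. The groups did not overlap, and the lowest CTCF-dRBR library was above the highest CTCF-WT library by more than either group's spread. The log2 fold change was 1.03 ± 0.14 (SE, limma-voom, n = 3 and 3, adjusted p = 0.0959). Without CTCF-dRBR replicate 1 it was 0.98 (adjusted p = 0.0305), and after the GC trend was removed it was 0.98 (adjusted p = 0.0165), so in both of these fits FOXO1 passed the threshold. Its counts were low, from 265 to 323 in CTCF-WT and from 387 to 601 in CTCF-dRBR. DESeq2 also called it (adjusted p = 2.24e-09) and edgeR's quasi-likelihood test did not. In the lifted Gencode genes, a long noncoding RNA gene on the same strand, ENSG00000288542, shares 1352 exon bases with FOXO1. It is not among the genes of the deposited values, so its reads could not be told apart from those of FOXO1.

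EBF1, the pioneer factor of B-cell specification (chr5:158122928-158526924, minus strand), was at 205, 211 and 229 CPM in CTCF-WT and at 275, 252 and 251 CPM in CTCF-dRBR. The lowest CTCF-dRBR value exceeded the highest CTCF-WT value. The log2 fold change was 0.27 ± 0.09 (SE, adjusted p = 0.163), and 0.22 (adjusted p = 0.140) without CTCF-dRBR replicate 1. It was 0.09 (adjusted p = 0.376) once the GC trend was removed, in a gene with exons of 43.2% GC.

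TCF3, which encodes the E proteins E12 and E47 (chr19:1609290-1652614, minus strand), was at 166, 169 and 137 CPM in CTCF-WT and at 74.2, 102 and 145 CPM in CTCF-dRBR. The groups overlapped, because CTCF-dRBR replicate 3 was above CTCF-WT replicate 3. The log2 fold change was −0.59 ± 0.24 (SE, adjusted p = 0.196), and −0.37 without CTCF-dRBR replicate 1. TCF3 has the GC-richest exons of the factors (62.5%), and its fold change turned to 0.21 (adjusted p = 0.462) after the GC trend was removed.

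PAX5, the commitment factor (chr9:36833266-37034265, minus strand), was at 392, 369 and 322 CPM in CTCF-WT and at 165, 258 and 307 CPM in CTCF-dRBR. The groups did not overlap, although CTCF-dRBR replicate 3 came within the CTCF-WT SD of 35.8 CPM of the lowest CTCF-WT library. The log2 fold change was −0.60 ± 0.23 (SE, adjusted p = 0.184). It was −0.36 (adjusted p = 0.107) without CTCF-dRBR replicate 1 and −0.28 (adjusted p = 0.0636) after the GC trend was removed, lower in each case. On TPM, limma-trend gave −0.045 with a pseudocount of 1 and −0.046 with 0.1 (adjusted p = 0.946 and 0.947). The median of all genes in those 2 fits was 0.40 and 0.54.

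Of the Ikaros factors, IKZF1 (chr7:50343664-50472799, plus strand) was at 233, 241 and 247 CPM in CTCF-WT and at 250, 264 and 273 CPM in CTCF-dRBR. The groups did not overlap, and their means, 240 ± 6.94 and 262 ± 11.2 CPM (SD, n = 3), differed by more than either SD. In the fit the log2 fold change was 0.13 ± 0.08 (SE, adjusted p = 0.319), 0.15 without CTCF-dRBR replicate 1 and 0.08 after the GC trend was removed. IKZF3 (chr17:37913971-38020565, minus strand) had only 20 to 50 counts per library, which is 0.487 to 0.944 CPM, and its groups overlapped. The exact 95% Poisson interval of its CTCF-WT replicate 1 value was 0.429 to 0.897 CPM, and such intervals cover counting error only.

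LEF1, the DNA-binding partner of β-catenin (chr4:108968701-109090112, minus strand), was at 275, 265 and 305 CPM in CTCF-WT and at 357, 341 and 346 CPM in CTCF-dRBR, without overlap. The log2 fold change was 0.31 ± 0.09 (SE, adjusted p = 0.147), 0.29 (adjusted p = 0.106) without CTCF-dRBR replicate 1, and 0.39 (adjusted p = 0.0431) after the GC trend was removed, where LEF1 passed the threshold. The antisense gene LEF1-AS1 overlaps 279 exon bases of LEF1 and was at 13.4 to 16.4 CPM, at most 6.02% of LEF1 in any library. The deposited tables are labelled as stranded, but how strand entered the counting is not described in the sources used here, so reads of this pair may not be fully separated.

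BACH2, the repressor of the B lineage (chr6:90636247-91006562, minus strand), was low, at 2.98, 2.86 and 3.04 CPM in CTCF-WT, and at 4.38, 4.59 and 4.13 CPM in CTCF-dRBR. The groups did not overlap. The log2 fold change was 0.56 ± 0.14 (SE, adjusted p = 0.131), from 131 to 237 counts per library. It was 0.55 (adjusted p = 0.0766) without CTCF-dRBR replicate 1 and 0.53 (adjusted p = 0.0363) after the GC trend was removed, where BACH2 passed the threshold.

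SOX4, a high-mobility-group factor with 1 exon (chr6:21593982-21598850, plus strand), was at 110, 116 and 104 CPM in CTCF-WT and at 138, 113 and 120 CPM in CTCF-dRBR. The groups overlapped (log2 fold change 0.16 ± 0.11 SE, adjusted p = 0.330), and the value was 0.08 without CTCF-dRBR replicate 1, the highest library. After the GC trend was removed it was 0.41 (adjusted p = 0.187), and with both changes together it was 0.19 (adjusted p = 0.0451), which passed the threshold, as 24.5% of all genes did. BCL11A, a zinc-finger repressor (chr2:60677655-60781602, minus strand), was at 69.5, 64.1 and 58.1 CPM in CTCF-WT and at 66.0, 65.2 and 61.5 CPM in CTCF-dRBR. BCL11A showed a log2 fold change of 0.01 ± 0.10 (SE), with a 95% confidence interval from −0.24 to 0.26 in this fit. The fold change was −0.01 without CTCF-dRBR replicate 1. After the GC trend was removed it was −0.18 (adjusted p = 0.342), with an interval from −0.47 to 0.11.

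**Figure D2:**
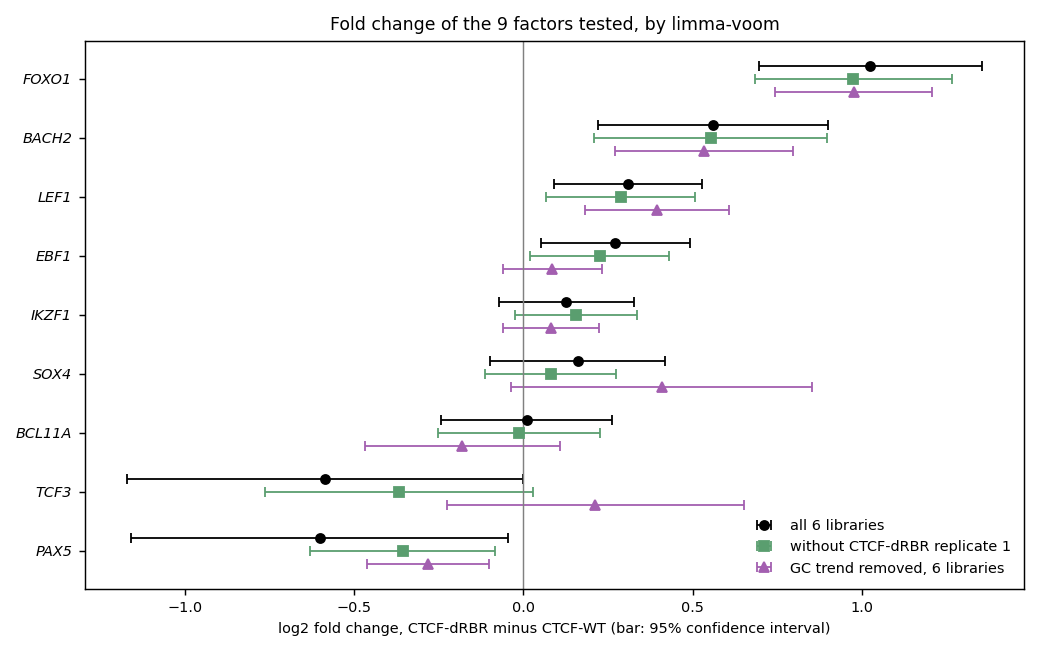
Log2 fold change (x axis, CTCF-dRBR minus CTCF-WT) with its 95% confidence interval for the 9 factors tested, from limma-voom on all 6 libraries (black), without CTCF-dRBR replicate 1 (green) and after removal of the GC trend (purple). The intervals of FOXO1, BACH2 and LEF1 lie above 0 and those of PAX5 below 0 in all 3 fits, whereas TCF3 moves from −0.59 to 0.21.

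**Figure D3:**
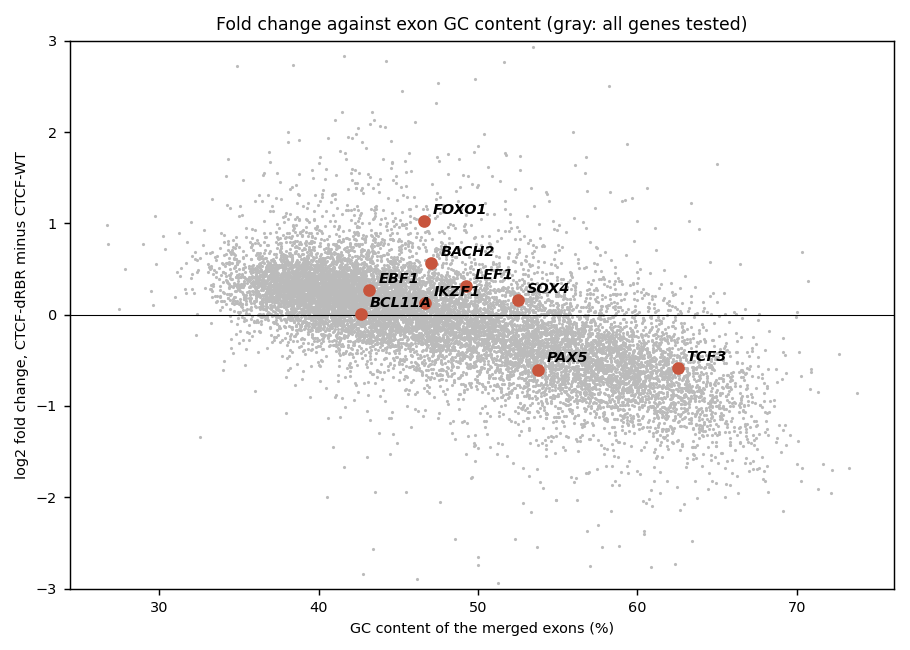
Log2 fold change by limma-voom (y axis) against the GC content of the merged exons in percent (x axis) for 13654 genes (gray) and the 9 factors tested (red), 62 genes outside the axis not shown. The gray cloud falls as GC rises. FOXO1 and BACH2, at 46.6% and 47.1% GC, lie above the median of genes of 45 to 50% GC (0.0024), as do IKZF1 and LEF1. PAX5, at 53.8%, lies below the median of genes of 50 to 55% GC (−0.25). TCF3, at the GC-rich end, lies above the median of genes above 60% GC (−0.76).

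Levels between genes can be compared per length in TPM, the deposited values scaled to gene length and depth. The mean TPM over the 6 libraries was 195 for LEF1, 57.7 for TCF3, 56.6 for EBF1, 40.7 for IKZF1, 31.9 for PAX5, 17.9 for SOX4, 15.9 for BCL11A, 1.23 for FOXO1, 0.622 for BACH2 and 0.212 for IKZF3. LEF1 was above TCF3 in all 6 libraries, BCL11A was above FOXO1 in all 6 by 8.92 to 23.2-fold, and FOXO1 was above BACH2 in all 6. TCF3 and EBF1 did not have a fixed order, with TCF3 higher in 4 of 6 libraries, and IKZF1 against PAX5, PAX5 against SOX4 and SOX4 against BCL11A held their order in 5 of 6 each. Within each library the factors spanned 625 to 1185-fold in TPM. Among protein-coding genes of the table, LEF1 was at the 97.4 to 98.6 percentile by TPM and IKZF3 at the 40.3 to 43.4 percentile.

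**Figure D4:**
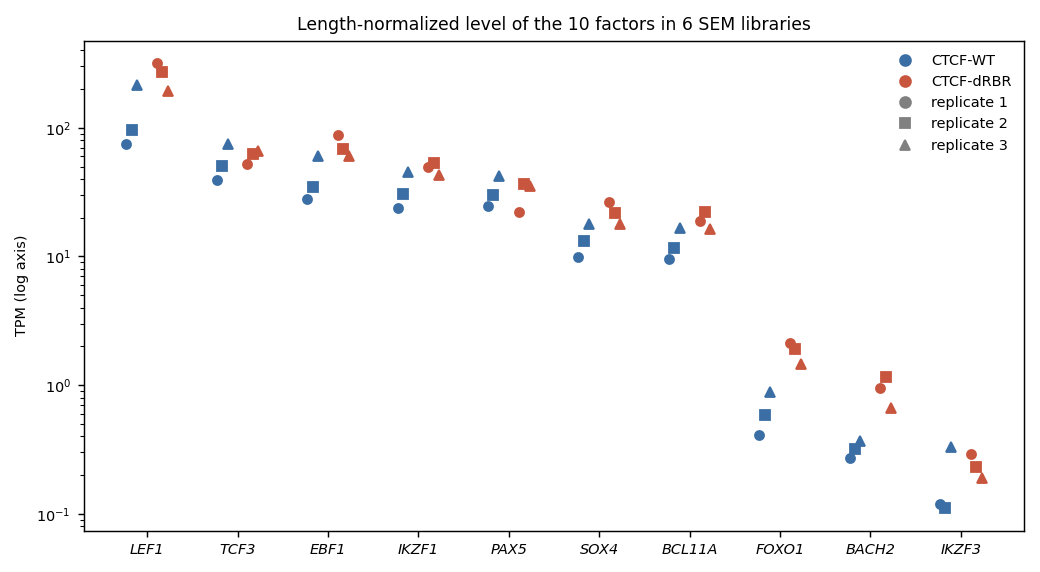
TPM (log axis) of the 10 factors in the 3 CTCF-WT (blue) and 3 CTCF-dRBR (red) libraries, ordered by mean TPM, with symbols for the replicate numbers. The order runs from LEF1 at 75.0 to 319 TPM to IKZF3 at 0.110 to 0.330 TPM.

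The deposited TPM sum over all genes. Protein-coding genes held 30.2%, 35.8% and 52.4% of the TPM in CTCF-WT replicates 1 to 3. They held 63.2%, 54.5% and 43.5% in CTCF-dRBR replicates 1 to 3, so the groups overlapped. The TPM of the factors therefore carries that variation between libraries. FOXO1 was at 0.410, 0.590 and 0.890 TPM in CTCF-WT and at 2.13, 1.90 and 1.47 TPM in CTCF-dRBR, without overlap (two-sided exact permutation test with p = 0.1, which is the lowest that 3 against 3 can give, and 0.286 after Benjamini-Hochberg adjustment over the 10 factors). BACH2 likewise did not overlap in TPM, at 0.270, 0.320 and 0.370 against 0.95, 1.16 and 0.66, and the other 8 factors overlapped, so 2 of 10 were higher without overlap in TPM, against 13.1% of all genes tested. When the TPM were rescaled to the protein-coding sum, EBF1, LEF1 and SOX4 were also without overlap, at 91.9 to 116 against 126 to 138, at 248 to 409 against 443 to 504 and at 33.0 to 36.6 against 40.02 to 42.3, which made 5 of 10 against 24.02% of all genes tested.

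The members were set beside their paralogs, which bind similar DNA. PAX6, a paralog better known from eye and neural development, had the highest mean TPM of the PAX genes over the 6 libraries (35.8), but PAX5 was above it in all CTCF-WT libraries and in CTCF-dRBR replicate 3. PAX5 held 59.7%, 60.9% and 53.1% of the summed TPM of the family in CTCF-WT but 23.2%, 43.99% and 52.1% in CTCF-dRBR. The groups did not overlap (exact permutation p = 0.1, the smallest possible), and the difference of −18.1 percentage points was −9.86 without CTCF-dRBR replicate 1 and −7.87 by expected counts. The mean TPM of PAX5 was 32.4 in CTCF-WT and 31.4 in CTCF-dRBR, and that of PAX6 was 22.8 and 48.7. In CPM, PAX6 was at 48.8 to 52.1 CPM in CTCF-WT and 49.1 to 65.0 CPM in CTCF-dRBR, with overlap.

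The FOXO family was mostly FOXO3, with 73.98 to 79.5% of its TPM in each library, and FOXO1 held 3.59%, 4.05% and 4.09% in CTCF-WT against 9.64%, 7.76% and 7.35% in CTCF-dRBR (exact permutation p = 0.1, the smallest possible). FOXO3 differed by −0.10 on the log2 scale (adjusted p = 0.411), or −0.02 after the GC trend was removed. TCF3 held 58.9 to 61.4% of E protein TPM in CTCF-WT and 47.7 to 58.8% in CTCF-dRBR, without overlap by a narrow margin. BACH1 held 98.2 to 99.1% of the BACH family and had a log2 fold change of 0.37 (adjusted p = 0.147), or 0.10 after the GC trend was removed.

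EBF1 made up 98.5 to 99.4% of the EBF family, LEF1 95.4 to 98.8% of the TCF/LEF family and BCL11A 99.8 to 99.9% of the BCL11 family. IKZF1 made up 78.0 to 81.9% of the Ikaros family. SOX4 made up 63.0%, 67.4% and 67.0% of the SOXC family in CTCF-WT and 75.9%, 69.8% and 69.7% in CTCF-dRBR. Its groups did not overlap (exact permutation p = 0.1, the smallest possible). IKZF2, named after its values were seen, was at 31.7 to 37.3 CPM in CTCF-WT and 48.6 to 60.8 CPM in CTCF-dRBR (log2 fold change 0.62, adjusted p = 0.109, and 0.29 after the GC trend was removed).

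**Figure D5:**
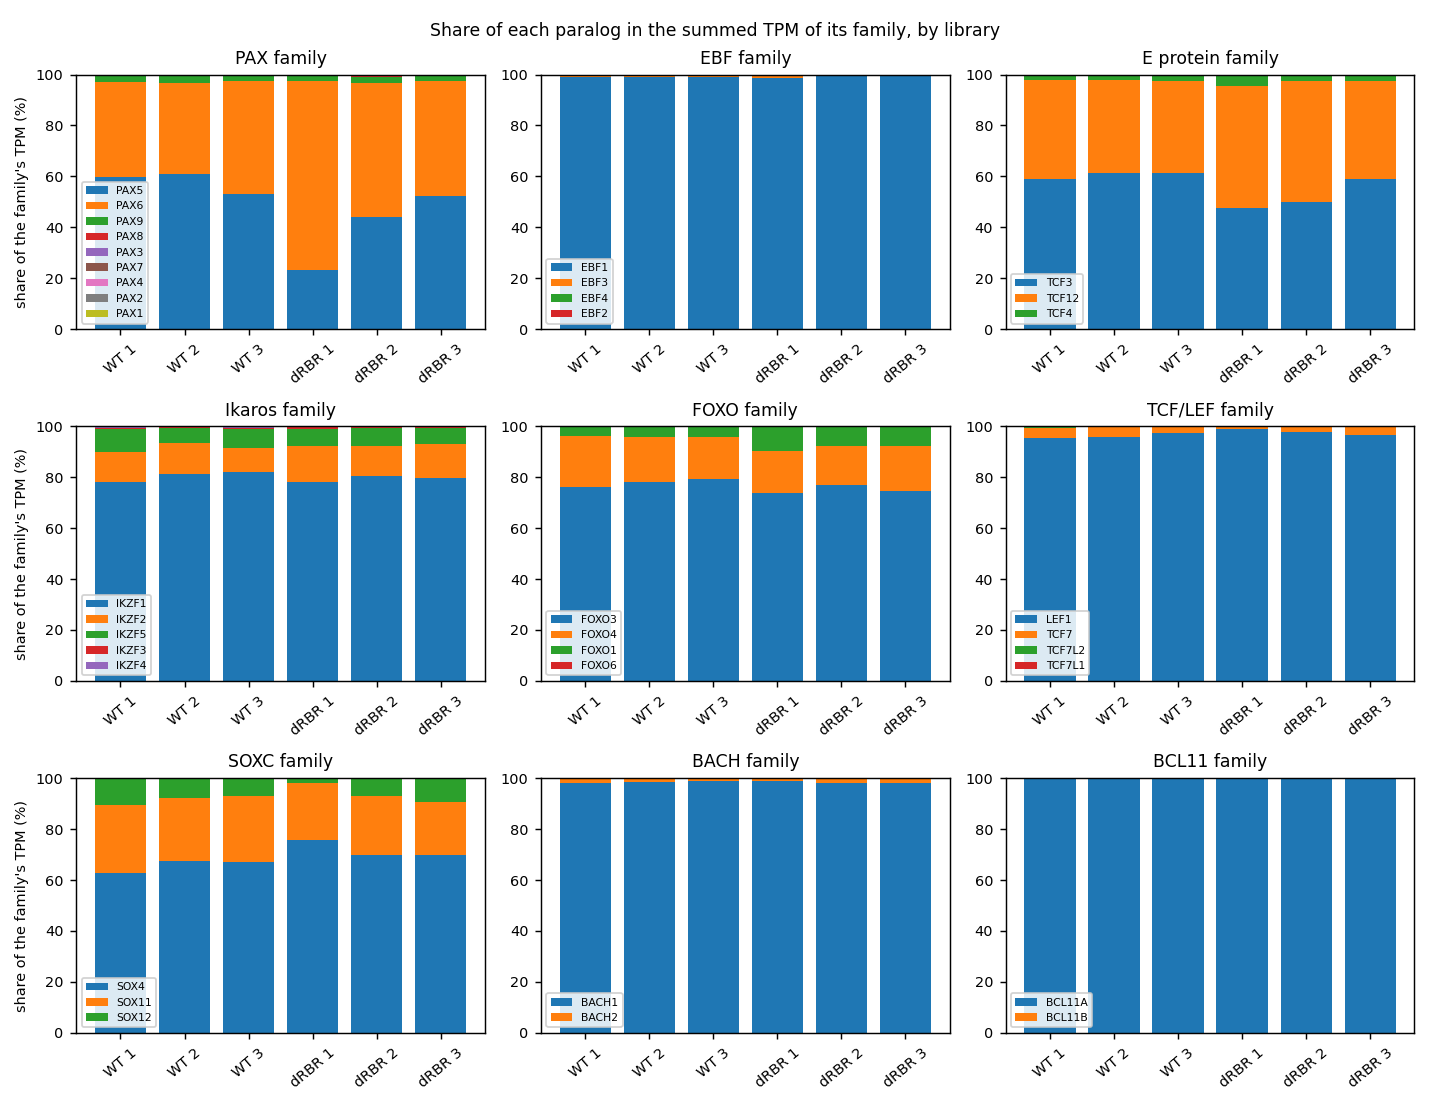
Share of each paralog in the summed TPM of its family (y axis, percent, 0 to 100) in each library (x axis), 1 panel per family. PAX5 takes a smaller share in each CTCF-dRBR library than in each CTCF-WT library, FOXO1 a larger one, and EBF1, LEF1, BACH1 and BCL11A take most of their families throughout.

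The factors work with other regulators of the lineage. Of 34 partner factors, 32 were tested, 0 passed an adjusted p of 0.05, 5 had an unadjusted p under 0.05, all higher (against 12.6% of all genes), and their median log2 fold change was 0.10. After the GC trend was removed 7 passed the threshold (against 9.71% of all genes), among them XBP1, ID2, MYB and ETS1. The largest by p were XBP1, the plasma cell and secretory factor, at 268 to 301 CPM in CTCF-WT and 395 to 414 CPM in CTCF-dRBR (log2 fold change 0.53, adjusted p = 0.0959), ID2, an inhibitor of E proteins, at 13.2 to 15.8 against 24.5 to 32.9 CPM (0.92, adjusted p = 0.0959), and MYB, at 133 to 163 against 207 to 259 CPM (0.69, adjusted p = 0.1001). For none of these did the groups overlap. Without CTCF-dRBR replicate 1, XBP1 (0.53, adjusted p = 0.0426), ID2 (0.81, adjusted p = 0.0353) and MYB (0.61) passed the threshold, as did 3.90% of all genes. LMO2, named after its values were seen, was the fourth partner called in that fit. ETS1 was lower, at 42.4 to 42.8 against 35.2 to 39.7 CPM (−0.22, adjusted p = 0.210, and −0.38, adjusted p = 0.0277, after the GC trend was removed). ID3, another E protein inhibitor, was at 66.8 to 86.1 CPM in CTCF-WT and at 11.3, 53.9 and 81.6 CPM in CTCF-dRBR, and MEF2D was at 15.8 to 24.3 against 8.93 to 20.8 CPM. Both overlapped, with CTCF-dRBR replicate 1 the lowest library.

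Among 20 known targets of these factors, 18 were tested, 0 passed an adjusted p of 0.05, 5 had an unadjusted p under 0.05, all higher (against 12.6% of all genes), and the median log2 fold change was 0.14, 0.30 without CTCF-dRBR replicate 1 and 0.46 after the GC trend was removed, where 6 passed the threshold (against 9.71% of all genes). RAG2, a subunit of the V(D)J recombinase that FOXO1 helps to activate, was at 2.98, 3.27 and 3.98 CPM in CTCF-WT and at 10.8, 9.65 and 6.68 CPM in CTCF-dRBR (log2 fold change 1.37, adjusted p = 0.0959). RAG1, named after its values were seen, was at 1.63, 1.71 and 1.79 CPM in CTCF-WT and at 4.25, 5.87 and 4.33 CPM in CTCF-dRBR (1.48, adjusted p = 0.0959). Both recombinase genes thus lay higher in every CTCF-dRBR library. Without CTCF-dRBR replicate 1 both passed the threshold (1.24, adjusted p = 0.0438 for RAG2, and 1.55, adjusted p = 0.0312 for RAG1), as did 3.90% of all genes. The chemokine receptor CXCR4 was at 54.1 to 57.9 against 71.6 to 81.4 CPM (0.47, adjusted p = 0.108), and the inhibitory receptor CD72 was at 74.6 to 77.6 against 92.0 to 100.4 CPM (0.33, adjusted p = 0.138). After the GC trend was removed, RAG1, RAG2 and CXCR4 passed the threshold, and CD72 was at 0.77 (adjusted p = 0.0589).

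CD79A, a signaling chain of the B-cell receptor, was at 134, 118 and 86.4 CPM in CTCF-WT and at 31.4, 78.4 and 116 CPM in CTCF-dRBR, and the groups overlapped. Its log2 fold change was −0.70 (adjusted p = 0.315), −0.23 without CTCF-dRBR replicate 1, the lowest library, and −0.0082 (adjusted p = 0.970) after the GC trend was removed. The cell cycle inhibitor CDKN1A was also lowest there, at 32.0 CPM in that library and at 79.3 to 113 CPM in the other 5.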

How the data were processed

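Total RNA of 6 SEM libraries was sequenced after removal of ribosomal RNA. Per the submitters' processing notes, the authors used Trim Galore (0.6.3), STAR (2.7.9a) and RSEM (1.3.1) with hg19. The authors' deposited expected counts come from RSEM per gene and are not normalized. The deposited TPM were scaled by the authors over all genes to gene length and depth. The labels call the reads single-end and the methods call them paired-end.

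Genes that reached 1 CPM in no library were removed, counts were normalized by TMM in edgeR (4.0.16), and groups were compared by limma-voom (limma 3.58.1, R 4.3.3) with no covariate, as the methods describe, two-sided with Benjamini-Hochberg adjustment over 14044 genes. The GC trend was removed by loess (span 0.5) of each library's log2 CPM deviation over exon GC, known for 13654 genes. Single values used exact permutation tests. DESeq2 (1.42.0, rounded counts) and others in the closing section were alternatives. The fits were tested on simulated counts. Figures were drawn with matplotlib (3.10.9).

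Named genes were all 10 members, the gene of highest mean TPM in each paralog family, and up to 3 higher and 3 lower partner or target genes by unadjusted p at a mean TPM of at least 1, of which 1 is not reported here. The members and lists were chosen with earlier results of these data known. ID1 to ID4 carried other names in the tables and were matched by Ensembl identifier. Coordinates and exon GC were read from Gencode genes lifted to GRCh37 and its genome. The promoter motifs were chosen by hand, and CCCTC replaced a longer CTCF core after the matches of that core had been seen.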

Additional observations from a re-analysis of the deposited data

How the results depend on the processing

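Of 162 refits of the fold changes of the 9 factors, 126 kept the direction and the side of the threshold, 23 passed it and 13 turned direction. The number of factors past an adjusted p of 0.05 was 3 by DESeq2, 7 with voomWithQualityWeights, 3 after removal of the GC trend, 5 after that without CTCF-dRBR replicate 1, and 2 with limma-trend on log2(TPM + 1) and on log2(TPM + 0.1), and ranged from 0 to 1 when 1 library was left out (1 without CTCF-dRBR replicate 1, FOXO1). In the same order, the partner factors gave 3, 19, 7, 11, 2 and 2 (0 to 4 without 1 library), the target genes 4, 13, 6, 12, 2 and 2 (0 to 4), and all genes 1619, 9583, 1326, 3268, 833 and 760 (0 to 535, with 535 without CTCF-dRBR replicate 1). Factors at an unadjusted p under 0.05 ranged from 2 to 6 without 1 library (2 without CTCF-WT replicate 1 or 2, and 3 without CTCF-dRBR replicate 2). Over all genes, 1425 of 14008, 1483 of 14022 and 1870 of 14002 were under 0.05 in those fits, in that order. Without CTCF-dRBR replicate 3, which gave 6 factors, 5732 of 13988 genes were. The 2 TPM settings raised the median of all genes by 0.40 and 0.54, so changes there are relative to that shift. Between libraries of the same replicate number, deviations from the group mean had correlations of −0.34, 0.10 and −0.47. Libraries of unlike number were not compared, so these values cannot tell whether the replicates were paired. With the replicate block, 0 factors and 0 of all genes passed, and 1 factor had an unadjusted p under 0.05, against 1423 of all 14044 genes. The median standard error over all genes was 0.19 on the log2 scale, and IKZF3 had too few counts for a test.

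The fold change of TCF3 turned to 0.21 after removal of the GC trend, 7.76e-05 after that without CTCF-dRBR replicate 1, 0.22 with the block and GC removal together, and 0.17 and 0.18 on TPM. That of SOX4 turned to −0.0034 with voomWithQualityWeights. That of BCL11A was −0.18, −0.11 and −0.18 in the 3 GC settings, −0.069 without the filter on low counts, and −0.057 to 0.062 without 1 library. The cause was not tested. The TPM difference of PAX5 was −4.89 to 3.87 without 1 library, that of TCF3 −2.47 to 15.4 and −21.7 on the protein-coding scale, and that of IKZF3 −0.00513 on that scale. Shares in percentage points turned for EBF1 (−0.140 to 0.301 without 1 library, −0.0378 by counts), IKZF3 (−0.111 to 0.0415) and BACH2 (−0.121 to 0.365).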

Other observations

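The ratio of expected count to TPM gives the effective length assumed for a gene, and was taken relative to the single-exon gene SOX4 in the same library. For LEF1 it was 0.333, 0.311 and 0.245 in CTCF-WT and 0.217, 0.241 and 0.269 in CTCF-dRBR, a spread of 1.53-fold between libraries. For BACH2 it was 1.00, 1.01 and 1.41 in CTCF-WT and 0.894, 0.762 and 0.937 in CTCF-dRBR. The BACH2 groups did not overlap (exact permutation p = 0.1, and 0.3 after Benjamini-Hochberg adjustment over the 9 genes). Neither did those of IKZF1, higher in CTCF-dRBR, and of IKZF3, lower in CTCF-dRBR. For FOXO1 the ratio varied by 1.02-fold. RSEM computes the effective length of a gene from the isoforms to which it assigns reads, and no isoform values were analysed here. The largest such spread among the 9 genes was that of BACH2 (1.86-fold), at 131 to 237 counts per library.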
